A study of Drosophila melanogaster with 12 samples.

Results

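The set described here holds 10 immune effector genes of the fly: the bomanins BomS1, BomS2, BomS3, BomBc1 and BomBc2, the antimicrobial peptide genes Drs, Mtk, AttA and CecA1, and the stress gene TotA. Members were the gene rows whose FlyBase identifier maps to these symbols, and 9 of the 10 matched, out of 17559 gene rows in each library. Drs, the antifungal peptide drosomycin, had no row under its current identifier and is not analysed here. RNA came from male reproductive tracts of Drosophila melanogaster, with accessory glands, testes and ejaculatory duct, and stranded total RNA libraries were sequenced. A label field on each sample names the accessory gland alone, but another names the whole tract. Virgin males came from 6 populations derived from 1 base population, the IV population, and kept for 168 generations under 1 of 2 mating regimes. Polygamy (3 populations) meant groups of 5 females and 5 males, and monogamy (3 populations) meant pairs of 1 male and 1 virgin female. The 4 groups were polygamous males aged 96 h, polygamous males aged 48 h, monogamous males aged 96 h and monogamous males aged 48 h. Each group held 3 libraries, 1 per population, and each library pooled 30 tracts. No infection or other immune treatment was named for any group.

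Flies fight infection partly with small secreted peptides, made mainly by the fat body and also by blood cells and by epithelia such as those of the reproductive tract. Gram-positive bacteria and fungi act chiefly through the Toll pathway, whose transcription factors Dif and Dorsal switch on bomanins and drosomycin, while many Gram-negative bacteria act through the IMD pathway and the factor Relish, which switches on attacins and cecropins. Bomanins are short peptides needed for survival after Toll-activating infections, and most of their genes sit in 1 cluster on chromosome 2R. Turandot proteins such as TotA are secreted in response to stress and are induced through JAK/STAT signalling among other routes.

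Library totals ranged from 31367030 to 40581251 gene counts, and levels are given as CPM, counts over the TMM-scaled library size. On that scale 3 counts equal 0.0727 to 0.099 CPM. Markers of gland and testis were both abundant: 7 main cell markers of the accessory gland summed to 7060 to 25920 CPM per library and 8 testis markers to 6455 to 9096 CPM. Monogamous population 1 had a deviating 48 h library. Its main cell sum of 7060 CPM was the lowest of all, and that library was the highest library for 29.5% of the 13156 genes tested. The main results on age and regime are therefore given with and without that population.

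Levels differed between members and, for the bomanins, with age. CecA1 and TotA had the highest level per length, at 49.4 and 16 CPM per kb of exon over the 12 libraries. BomBc2, BomS3 and BomS2 followed with 5, 3.95 and 3.69 CPM per kb, means that pool both ages and the deviating library. At 96 h alone they were at 0.657, 0.718 and 0.976 CPM per kb, against 4.84, 3.6 and 3.17 CPM per kb at 48 h without that library, so the order differed between ages. TotA was at 9.02 CPM per kb at 96 h, against 9.34 CPM per kb at 48 h without that library. These 96 h means keep the 96 h library of monogamous population 1, the highest for TotA at that age (12.6 CPM). Its medians were 1.99 CPM at 96 h and 4.66 CPM at 48 h without the deviating library. The other 4 members had few counts, at 0.514 CPM per kb for BomS1, 0.41 for AttA, 0.296 for Mtk and 0.0136 for BomBc1. AttA, at 6 to 28 counts per library, stayed above 3 counts throughout.

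The bomanins BomBc2, BomS3 and BomS2 were lower at 96 h than at 48 h in every population, and their log2 changes averaged over both regimes were the 3 most negative among the members tested. BomBc2, a bicipital bomanin (a peptide with a repeated bomanin motif) at 2R:18384824-18385589 on the minus strand of build BDGP6.54, had 0.388, 0.19 and 1.37 CPM at 96 h in polygamous populations 1 to 3, against 2.64, 3.41 and 3.87 CPM at 48 h. In monogamous populations 1 to 3 it had 0.334, 0.331 and 0.195 CPM at 96 h, against 22.6, 3.04 and 4.25 CPM at 48 h. All 96 h libraries were below all 48 h libraries, and the 48 h library of monogamous population 1 was 5.32 times the highest of the 11 others. The log2 change averaged over both regimes was -3.72 ± 0.70 (SE), and BomBc2 fell by edgeR's quasi-likelihood test (adjusted p = 0.0333). With population as a block the change was -3.67 ± 0.39 (adjusted p = 0.00693), and without monogamous population 1 it was -3.07 ± 0.39 (adjusted p = 0.00348). The call was lost when any 1 of 8 of the 12 libraries was left out, with adjusted p of 0.0703 to 0.0918.

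BomS3, a short bomanin that encodes little more than the secreted peptide, lies on the plus strand at 2R:18387895-18388734. It had 0.509, 0.217 and 0.953 CPM at 96 h in polygamous populations 1 to 3, against 2.85, 2.37 and 2.57 CPM at 48 h. In monogamous populations 1 to 3 it had 0.642, 0.433 and 0.561 CPM at 96 h, against 19.3, 2.2 and 3.84 CPM at 48 h. The ages again did not overlap, and monogamous population 1 at 48 h was again the one library far above the rest. The log2 change was -3.06 ± 0.65, which did not pass the test in edgeR without the block (adjusted p = 0.0526). It passed with the population block (-2.95 ± 0.36, adjusted p = 0.01) and without monogamous population 1 (-2.40 ± 0.29, adjusted p = 0.00224). Leaving out any 1 of the 3 monogamous 48 h libraries also gave a call, with adjusted p of 0.000814 to 0.0448.

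BomS2, another short bomanin, lies on the plus strand at 2R:18386602-18387030. Polygamous populations 1 to 3 had 0.242, 0.38 and 0.747 CPM at 96 h, against 0.89, 1.13 and 1.13 CPM at 48 h. Monogamous populations 1 to 3 had 0.334, 0.178 and 0.268 CPM at 96 h, against 8.31, 0.959 and 1.71 CPM at 48 h. These values too did not overlap between ages, though at 96 h they rested on 7 to 29 counts per library. The log2 change of -2.49 ± 0.69 did not pass in edgeR without the block (adjusted p = 0.122), but did with it (-2.43 ± 0.30, adjusted p = 0.00788) and without monogamous population 1 (-1.89 ± 0.33, adjusted p = 0.0112). Leaving out only the 48 h library of that population gave a call as well (adjusted p = 0.00555).

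**Figure D1:**
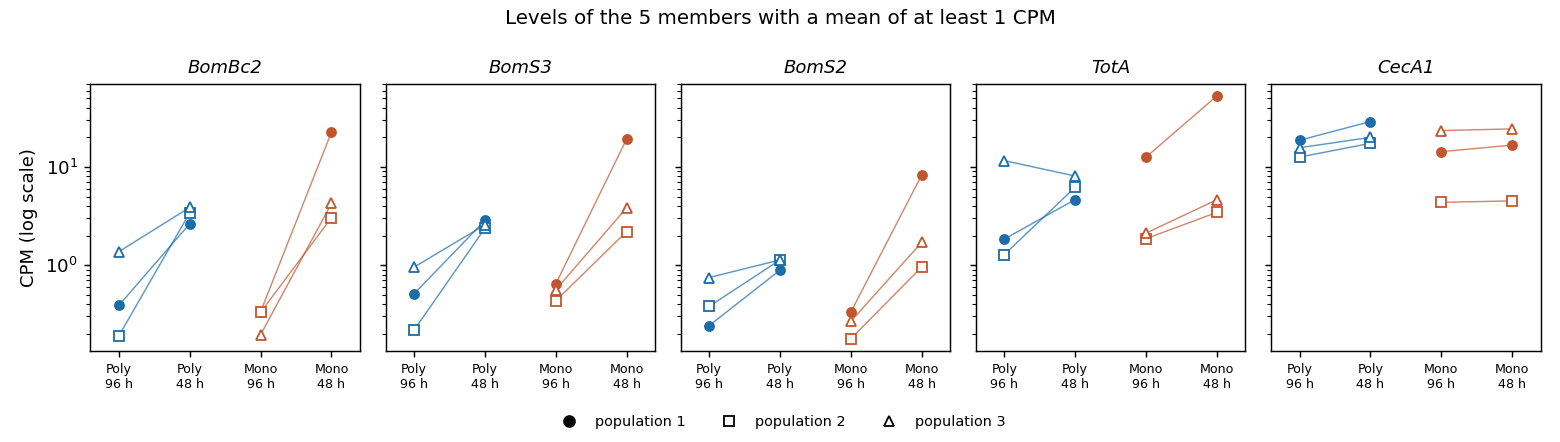
Level in CPM (log axis) of the 5 members with a mean of at least 1 CPM in each library, by regime and age, with lines joining the 2 ages of a population. BomBc2, BomS3 and BomS2 are lower at 96 h in all 6 populations, and the 48 h library of monogamous population 1 reaches 22.6, 19.3 and 8.31 CPM; CecA1 in monogamous population 2 lies at 4.36 and 4.51 CPM.

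Of the 6 members that passed the low-count filter, 1 was called in the age comparison over both regimes, against 1.47% of all genes tested and 0.646% called lower. Complete separation of the ages, with every 96 h library below every 48 h library, occurred in 3 members and in 1.36% of all genes. Those 3 reached the filter level of 0.274 CPM in all 6 libraries at 48 h. At 96 h BomS3 reached it in 5 libraries, BomBc2 in 4 and BomS2 in 3. By size of log2 change with all libraries, BomBc2, BomS3 and BomS2 ranked 6th, 14th and 28th from the most negative of 13156 genes. By p they ranked 139th, 205th and 516th. In polygamous males alone they ranked 52nd, 57th and 161st from the most negative. With the population block 4 members were called lower, against 1.88% of all genes, and without monogamous population 1 the number was 3, against 3.53% of all genes. DESeq2 called 3 lower, against 2.61% of all genes.

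Within regimes edgeR called 0 members, while it called 0.0988% of all genes in polygamous and 0.547% in monogamous males. DESeq2 called 0 members lower in polygamous males, beside 0.737% of all genes, and 3 in monogamous males, beside 1.13% of all genes. In polygamous males the log2 changes at 96 h against 48 h were -2.34 ± 0.97 for BomBc2, -2.20 ± 0.98 for BomS3 and -1.20 ± 1.00 for BomS2, with adjusted p of 0.612, 0.644 and 0.909. In monogamous males they were -5.09 ± 1.00 for BomBc2, -3.93 ± 0.86 for BomS3 and -3.77 ± 0.90 for BomS2, with adjusted p of 0.0706, 0.103 and 0.126. With the population block all 3 fell in monogamous males (adjusted p = 0.016, 0.0224 and 0.0112), beside 0.806% of all genes called lower, and 0 members were called in polygamous males. Without the block, at an unadjusted p under 0.05, BomBc2 and BomS3 passed in polygamous males, beside 7.72% of all genes, and all 3 in monogamous males, beside 14.8% of all genes. Without monogamous population 1, BomBc2 and BomS3 fell in both regimes, beside 2.12% of all genes in polygamous and 0.431% in monogamous males. Their log2 changes were then -2.34 and -2.19 in polygamous males (adjusted p = 0.0315 and 0.0187) and -3.79 and -2.61 in monogamous males (adjusted p = 0.0448 and 0.0415). The difference between the 2 age changes passed in 0 of 6 members by edgeR, with adjusted p of 0.919 to 0.952, beside 0% of all genes called. DESeq2 called 0 of the 5 members it gave a p, beside 0% of all genes. At an unadjusted p under 0.05, edgeR had 0 members without the block, beside 2.47% of all genes, and BomS2, CecA1 and BomBc2 with it (0.00576, 0.0146 and 0.0254, adjusted p = 0.717 each), beside 5.38%. DESeq2 had BomBc2 and BomS2 (0.00853 and 0.0106), beside 2.61% of all genes. Without monogamous population 1, edgeR had AttA (0.0102, adjusted p = 1), beside 2.37% of all genes, and with the block as well CecA1, AttA and BomS2 (0.00189, 0.00844 and 0.0186, adjusted p = 0.128, 0.262 and 0.378), beside 9.23%. The BomBc2 difference between regimes in the age change, polygamous minus monogamous, was 2.75 ± 1.63 with all libraries and 1.45 ± 0.94 without that population.

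The remaining bomanins of the set were barely counted. BomS1, a short bomanin at 2R:18383949-18384378, had 2, 2 and 8 counts at 96 h in polygamous populations 1 to 3, against 2, 3 and 7 at 48 h, and in monogamous populations 3, 7 and 4 counts at 96 h, against 22, 10 and 6 at 48 h. Only the 48 h library of monogamous population 1 exceeded 10 counts, and BomS1 did not pass the filter. BomBc1, the second bicipital bomanin of the set, had 1 count and 2 counts in monogamous populations 1 and 2 at 96 h and 0 in the other 10 libraries. A count of 0 allows up to 0.0727 to 0.099 CPM in a library, which covers counting error only.

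Tested genes of the 2R cluster had larger age changes than the genes around it, given as a description with no test. The bomanin cluster holds 10 genes over 9.2 kb, from 18381393 to 18390629, and 5 of them could be tested. Log2 changes of those 5 ran from -3.72 to -2.49, with 1 called lower without the block and 5 with it, beside 0.646% and 1.88% of all genes. Without monogamous population 1 they ran from -3.07 to -1.89, with 5 called lower, beside 3.53% of all genes. Of the other cluster genes, BomS6 and BomT2, chosen after their values were seen, had log2 changes of -2.91 ± 0.81 (adjusted p = 0.122) and -3.06 ± 0.73 (adjusted p = 0.0766). Among 12 tested neighbours within 20 kb, mostly glutathione S-transferases, log2 changes ran from -0.60 to 0.29 with a median of -0.20. Of these, GstE1, a detoxifying enzyme, was the 1 called (-0.60 ± 0.12, adjusted p = 0.04). Without monogamous population 1 the neighbours ran from -0.56 to 0.37, with 2 called. The 10 cluster genes summed to 1.47 to 5.77 CPM in the 96 h libraries, against 10.4 to 14.7 CPM in the 48 h libraries without monogamous population 1. On chromosome 3R, BomT3 and BomBc3 summed to 1.71 to 3.27 CPM at 96 h, against 2.43 to 3.22 CPM in the same 48 h libraries, so those ranges overlapped.

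**Figure D2:**
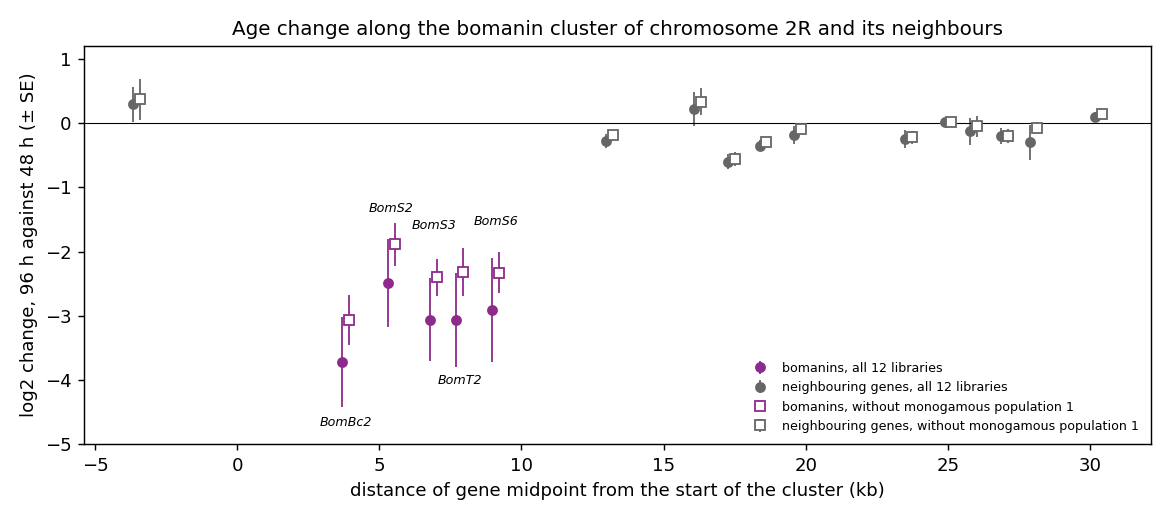
Log2 change at 96 h against 48 h (± SE) of tested genes by distance in kb from the start of the 2R bomanin cluster, from all 12 libraries (filled) and without monogamous population 1 (open). The 5 bomanins lie between -3.72 and -2.49 with all libraries, while the 12 neighbours lie between -0.60 and 0.29.

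BomBc2 shares 88 exon bases with BomS4 on the opposite strand, and no source states whether counting used strand, so reads of that stretch cannot be assigned with certainty. Whether the bomanins share reads with each other was not measured.

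Of the antimicrobial peptide genes, CecA1 and AttA could be tested, and neither was called without the block. CecA1, a cecropin that lyses bacterial membranes, lies at 3R:30210874-30211273. It had 18.7, 12.6 and 15.7 CPM at 96 h in polygamous populations 1 to 3, against 29.0, 17.4 and 20.0 CPM at 48 h. In monogamous populations 1 to 3 it had 14.3, 4.36 and 23.5 CPM at 96 h, against 16.7, 4.51 and 24.4 CPM at 48 h. Populations differed more than ages: monogamous population 2 was lowest at both ages and monogamous population 3 averaged 5.4 times as much. At 96 h CecA1 was lower in 6 of 6 populations, as were 8.34% of all genes, but the ages overlapped. The log2 change was -0.31 ± 0.42 (adjusted p = 0.755), and it ran from -0.61 to -0.04 when 1 library at a time was left out. With the population block, which removes the differences between populations, it was -0.30 and passed (adjusted p = 0.0395).

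AttA, an attacin active against Gram-negative bacteria, had 9, 14 and 7 counts at 96 h in polygamous populations 1 to 3, against 10, 12 and 11 at 48 h. In monogamous populations it had 6, 22 and 28 counts at 96 h, against 8, 6 and 10 at 48 h. Only monogamous populations 2 and 3 at 96 h stood above the rest, and the log2 age change of 0.29 ± 0.37 did not pass (adjusted p = 0.726). It was 0.52 ± 0.27 without monogamous population 1 (adjusted p = 0.321) and ran from 0.10 to 0.49 when 1 library at a time was left out. In monogamous males alone it was 0.93 ± 0.50 (adjusted p = 0.397), and 1.38 ± 0.39 without that population (unadjusted p = 0.00588, beside 11.4% of all genes under 0.05, adjusted p = 0.2, or 0.0532 with the block). Mtk, the antifungal and antibacterial peptide metchnikowin, had 1 to 6 counts per library and 35 in all, and was not tested. AttA and CecA1 have near-identical relatives, AttB and CecA2, between which reads can be divided or lost. AttB averaged 1.23 ± 0.561 CPM at 96 h and 1.07 ± 0.16 CPM at 48 h, and CecA2 had 3 counts at 96 h and 2 at 48 h over 6 libraries each.

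**Figure D3:**
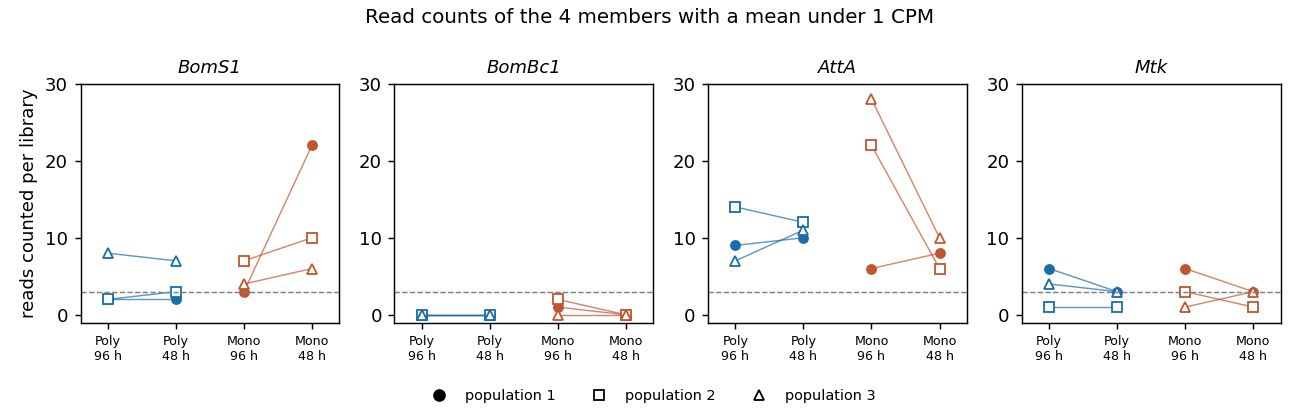
Reads counted per library for the 4 members with a mean under 1 CPM, by regime and age, with lines joining the 2 ages of a population and a dashed line at 3 counts. BomS1 reaches 22 counts in monogamous population 1 at 48 h, AttA reaches 28 in monogamous population 3 at 96 h, and BomBc1 and Mtk stay at or under 6.

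TotA, a secreted stress peptide at 3R:20871036-20871700, had population means that differed up to 12.4 times, or 3.71 times without monogamous population 1, where those of CecA1 still differed 5.4 times. It had 1.84, 1.28 and 11.6 CPM at 96 h in polygamous populations 1 to 3, against 4.66, 6.22 and 8.08 CPM at 48 h. Monogamous populations 1 to 3 had 12.6, 1.86 and 2.12 CPM at 96 h, against 53.1, 3.45 and 4.64 CPM at 48 h. Monogamous population 1 was the highest at both ages, and polygamous population 3 was the 1 population higher at 96 h than at 48 h. The log2 age change was -1.12 ± 0.84 (adjusted p = 0.526), and -1.15 ± 0.38 with the population block (adjusted p = 0.154). It was -0.70 ± 0.66 without monogamous population 1 (adjusted p = 0.633), and 0.03 without only the 48 h library of that population. Its relative TotC, named by its likeness, reached 31 CPM in that library and 6.1 CPM in polygamous population 3 at 96 h.

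**Figure D4:**
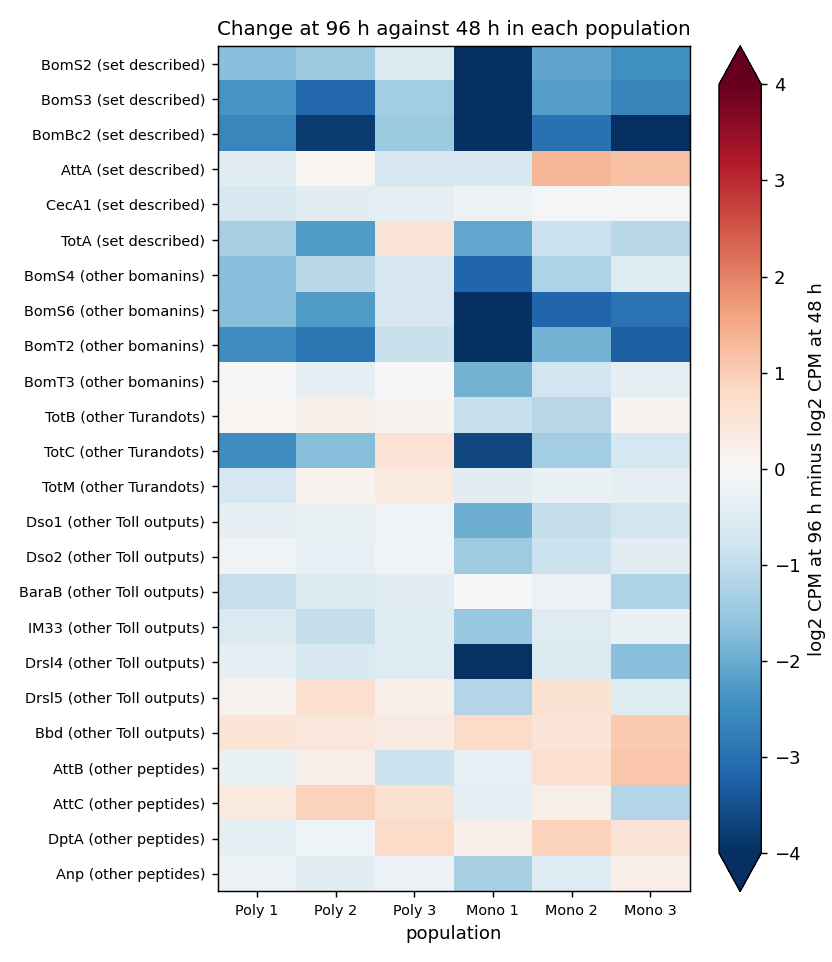
Log2 CPM at 96 h minus log2 CPM at 48 h in each of the 6 populations, for members and related immune genes with at least 100 counts in all (blue is lower at 96 h, red is higher, and values past 4 in size share the end colour). The rows of BomS2, BomS3, BomBc2, BomS6 and BomT2 are blue in all 6 populations, with the weakest change in polygamous population 3.

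Mating regime gave 0 calls among the members by edgeR or DESeq2. Of all genes, DESeq2 called 1.04% at 48 h, 0.175% at 96 h and 0.548% for the sums over both ages. Summed over both ages, 7 members could be tested as 3 populations against 3, and their log2 differences, polygamous minus monogamous, were -1.40 ± 0.79 for BomS3, -1.25 ± 0.80 for BomBc2, -1.25 ± 0.81 for BomS2, -1.11 ± 0.59 for BomS1, -1.09 ± 1.05 for TotA, -0.34 ± 0.38 for AttA and 0.35 ± 0.55 for CecA1. Adjusted p ran from 0.544 to 0.812, and the share of all genes called by edgeR was 0% for the sums and at each age. The lowest unadjusted p among the members was 0.106 in edgeR with all libraries and 0.0816, for AttA, without monogamous population 1. DESeq2 gave BomS3 0.0197 and BomBc2 0.0388 (adjusted p = 0.373 and 0.45), beside 10.2% of all genes at an unadjusted p under 0.05. Without monogamous population 1 the differences were -0.16 ± 0.27 for BomS3, 0.04 ± 0.30 for BomBc2, -0.03 ± 0.35 for BomS2 and 0.92 ± 0.63 for TotA. At 48 h, an unadjusted p under 0.05 in edgeR was reached by BomS2, BomS3 and BomBc2 (0.0333, 0.0342 and 0.047), beside 17.1% of all genes. All 3 were lower in polygamous males, with log2 differences of -1.77, -1.69 and -1.57 and adjusted p of 0.278 to 0.29. Without monogamous population 1 these differences were -0.37, -0.24 and -0.15, with unadjusted p of 0.313, 0.442 and 0.688. At 96 h 0 members reached it with all libraries, and AttA did without that population (-1.27 ± 0.33, unadjusted p = 0.00364, adjusted p = 0.445), beside 8.15% of all genes. The 3 polygamous libraries at 48 h lay above the 3 monogamous ones for AttA, with 10 to 12 counts against 6 to 10, as they did in 11.9% of all genes.

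The members varied together across libraries to different degrees. Over the 12 libraries, Pearson's r of log2 CPM was 0.97 between BomS3 and BomBc2, 0.95 between BomS2 and BomBc2 and 0.95 between BomS2 and BomS3, and over the 10 libraries without monogamous population 1 it was 0.96, 0.93 and 0.89. TotA had r of 0.72 to 0.77 with the bomanins, and CecA1 had 0.18 to 0.25. These are descriptions over libraries that share populations and ages. Over the 12 libraries, the genes most like BomBc2 were its cluster neighbours BomT2 (r = 0.99) and BomS6 (0.95) and CG31313 (0.94). BomS6 (0.97), GstE2 and Kpc2 (0.96 each) were most like BomS2, and Prx4, CG13607 and BomT2 (0.97 each) most like BomS3. TotA was most like CG33233 (0.96), HP1b (0.95) and TotC (0.94), and CecA1 most like Tace (0.95), asRNA:CR45175 (0.95) and tor (0.93). The ranks of these genes differed without monogamous population 1, though BomT2 and Tace did not move from the first place they had for BomBc2 and CecA1. For BomBc2, BomT2 was 1st, BomS6 5th and CG31313 36th, and for BomS2, BomS6 was 4th, GstE2 25th and Kpc2 26th. For BomS3, CG13607, Prx4 and BomT2 were 13th, 18th and 22nd. For TotA, TotC was 1st, CG33233 3rd and HP1b 13th, and for CecA1, Tace was 1st, asRNA:CR45175 3rd and tor 14th. Tace, a metalloprotease gene, lies 207 kb from CecA1 on chromosome 3R.

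Genes of the pathways upstream of the members were not called without the population block. Of 18 Toll pathway and 18 IMD pathway genes tested, edgeR and DESeq2 called 0 in either direction, beside 1.47% and 4.77% of all genes. At an unadjusted p under 0.05 in edgeR, 4 and 2 passed, beside 17% of all genes. With the population block, which called 1.88% of all genes lower, psh, a protease that activates Toll, fell (-2.11 ± 0.45, adjusted p = 0.0493). The gene was chosen after its value was seen. It had 126 counts in all, with 1.06 CPM in the 48 h library of monogamous population 1 and at most 0.519 CPM in any other. Without that population, and without the block, 0 of the 18 Toll pathway genes were called, beside 6.09% of all genes. Of 7 JAK/STAT genes, both tools called 0 and 0 passed unadjusted. The factors were expressed at both ages: Dif averaged 22.9 ± 1.73 CPM at 96 h and 20.6 ± 3.32 CPM at 48 h, dl 16.0 ± 1.49 CPM at 96 h and 15.2 ± 2.09 CPM at 48 h, and Rel 31.1 ± 3.24 CPM at 96 h and 30.1 ± 3.55 CPM at 48 h (SD, 6 libraries per age). Of 7 other tested genes listed here as Toll outputs, a label not tested here, 6 had negative log2 changes, with a median of -0.54. By edgeR 4 passed at an unadjusted p under 0.05, beside 17% of all genes, and 0 were called lower, beside 0.646%. Drsl4 (-2.19 ± 0.31, adjusted p = 0.0081) and Dso1 (-0.74 ± 0.15, adjusted p = 0.0484) fell with the block. The block called 1.88% of all genes lower, and both were chosen after their values were seen. DESeq2 called 2 of the 7 lower, beside 2.61% of all genes. Drsl4 had 180 counts in all. It reached 3.2 CPM in the 48 h library of monogamous population 1 and at most 0.614 CPM in any other. Dso1 was also highest there, at 65.2 CPM against at most 36.6 CPM. Without that population, and without the block, 0 of the 7 were called lower, beside 3.53% of all genes. Bbd rose (0.63 ± 0.12, adjusted p = 0.0317), beside 0.829% of all genes called higher. It had 182 to 305 CPM at 96 h and 127 to 176 CPM at 48 h. Its call was lost when any 1 of 8 libraries was left out. Also tested were 3 other bomanins, 4 other antimicrobial peptides, 3 other Turandots and 9 melanisation and thioester genes. Among them edgeR called 0, beside 1.47% of all genes. DESeq2 called 1, 0, 0 and 1, beside 4.77% of all genes. In the same order, 2, 1, 0 and 2 passed at an unadjusted p under 0.05 in edgeR, beside 17% of all genes tested.

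Markers of fat body and haemocytes, known sources of these peptides, are given beside the bomanin result. Summed levels of 12 fat body markers came to 56.2 to 79.2 CPM in the 96 h libraries, against 68.2 to 104 CPM in the 48 h libraries without monogamous population 1, and 225 CPM in the 48 h library of that population. The larval serum protein and Fbp genes among them summed to 4.33 to 5.74 CPM at 96 h, against 5.85 to 22.6 CPM at 48 h. Fbp1, a storage protein receptor of the fat body, had 1 count over the 6 libraries at 96 h and 306 over those at 48 h, with 0 counts in 5 of the 96 h libraries. The 48 h counts were uneven. Fbp1 had 2.67 CPM in the 48 h library of monogamous population 1 and 0.0276 to 4.76 CPM (median 0.503) in the other 5. Not every marker followed it. The gene to, with 57 counts in all, was higher at 96 h in 6 of 6 populations, and Mtp in 3 of 6. All 10 tested markers had negative log2 changes over both regimes. In the summed level, apolpp alone held 172 CPM in that library and 47.1 to 65.9 CPM in the other 5. For 10 haemocyte markers the sum was 128 to 199 CPM at 96 h, against 208 to 256 CPM at 48 h without that library and 389 CPM in it. Without the basement membrane genes Col4a1, vkg and SPARC, the other 7 summed to 73.9 to 104 CPM at 96 h, against 85.5 to 107 CPM at 48 h without that library, which overlapped. Of the 10 tested fat body markers, 0 were called by edgeR and 2 by DESeq2, beside 1.47% and 4.77% of all genes. In edgeR 6 passed at an unadjusted p under 0.05, beside 17% of all genes, and the median log2 change was -0.89. With the block 4 fell, beside 1.88% of all genes. Without monogamous population 1 edgeR called 0, beside 6.09% of all genes. At an unadjusted p under 0.05 there was then 1, beside 20.9% of all genes. Of 9 haemocyte markers vkg (-0.97 ± 0.19, adjusted p = 0.0372) and SPARC (-0.60 ± 0.12, adjusted p = 0.0328) fell. Both are basement membrane genes, and edgeR called 0.646% of all genes lower. Main cell markers summed to 13374 to 15899 CPM at 96 h, against 19456 to 25920 CPM at 48 h without the deviating library, and Acp95EF, a seminal fluid protein gene, fell (-0.55 ± 0.11, adjusted p = 0.0328). The calls of vkg, SPARC and Acp95EF were each lost when any 1 of 8 or 9 libraries was left out. Their part in the bomanin result was not tested. In bulk samples such as these, fewer cells of a type and less RNA per cell cannot be told apart.

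**Figure D5:**
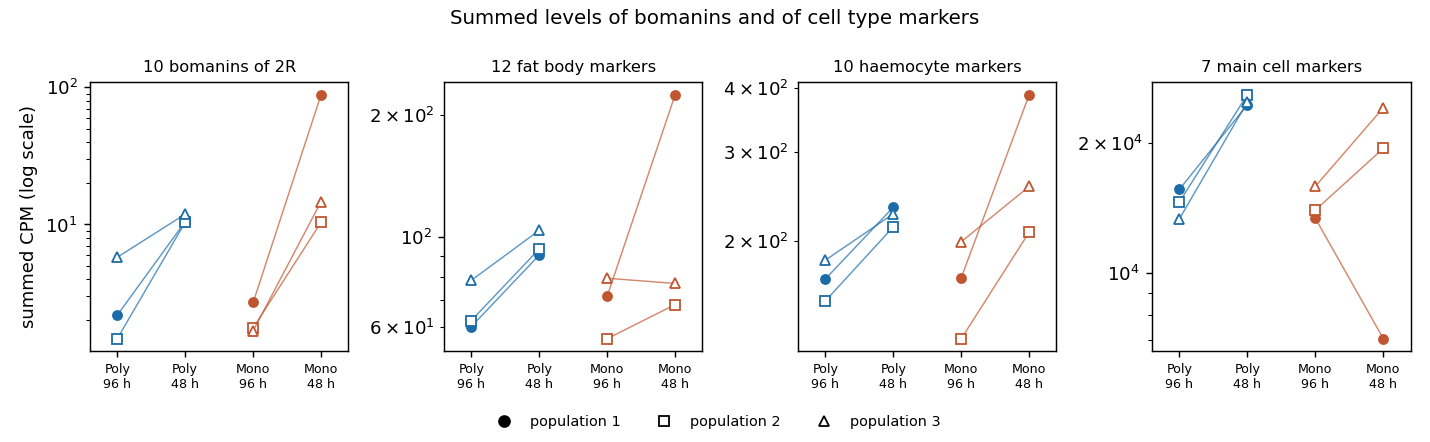
Summed CPM (log axes of different range) of the 10 bomanins of 2R, 12 fat body markers, 10 haemocyte markers and 7 main cell markers in each library, with lines joining the 2 ages of a population. The 48 h library of monogamous population 1 is highest for the bomanins (88.7 CPM), fat body (225 CPM) and haemocyte (389 CPM) markers and lowest for main cell markers (7060 CPM).

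In the 48 h library of monogamous population 1, 5 of the 9 members with a row were at their highest of all 12 libraries. Of the 6 members tested the number was 4, beside the 29.5% of all genes tested given above. Relative to the median of the other 5 libraries at 48 h, that library held 11.4 times as much TotA, 7.53 times as much BomS3, 7.39 times as much BomS2, 6.64 times as much BomBc2 and 4.38 times as much BomS1. It held 0.834 times as much CecA1 and 0.86 times as much AttA. A level above 2 times the highest of the other 11 libraries was reached by all 5 of those raised members, 4 of them tested, and by 1.41% of all genes tested. Beside the members, 6 of 7 other bomanins, 5 of 7 other Turandots and 4 of 14 other antimicrobial peptides were highest in that library. Of the markers, 6 of 12 for fat body, 8 of 10 for haemocytes and 3 of 8 for testis were. For duct and bulb it was 1 of 5, for main cells 0 of 7 and for secondary cells of the gland 0 of 3. Testis markers summed to 9096 CPM there, against at most 7481 CPM in any other library. Secondary cell markers summed to 131 CPM, against 769 to 1271 CPM. The part of any of these cell types in its high values was not tested.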

How the data were processed

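The authors deposited unnormalised counts, 1 file for each library. Reads went through Trimmomatic 0.33, TopHat2 2.1.0 and HTSeq 0.6.1 on build BDGP6, per the submitters' processing notes; which annotation, strand setting and counting mode they used is not given in the sources used here. Each table held 17559 gene rows, and summary lines with 15.1% to 17.2% of reads stayed out of library sizes and tests. Symbols and positions came from Ensembl's BDGP6.54 annotation, which named 17253 rows.

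Counts were tested with edgeR 4.0.16 in R 4.3.3: TMM scaling, filterByExpr with a minimum count of 10, 1 coefficient per group over all 12 libraries, robust quasi-likelihood fits with the newer dispersion method (not the package's default in this version) and Benjamini-Hochberg adjustment over 13156 genes, or 13512 for population sums. A gene was called at an adjusted p under 0.05. The fitting code was tested on simulated data. Log2 values for correlations used a prior count of 2. The 2 libraries of a population came from the same line, and their deviations from group means correlated at 0.39 to 0.57, so population was a true block for age. A population is 1 replicate of its regime, with 1 pool per age. Alternatives were size factors of DESeq2, the DESeq2 1.42.0 test, no low-count filter, the block, libraries left out in turn and monogamous population 1 left out.

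Named genes were the members, genes of 14 other lists that were called, at most 4 per list and comparison, and the 3 genes most like each member, both averaging 1 CPM or more. Signalling factors were named for their levels. Outside that rule, and with values seen, stand the relatives AttB and CecA2, BomT3 and BomBc3, BomS4 and the neighbour GstE1. So do the markers Fbp1, Col4a1, to, Mtp and apolpp, beside those said so in the text. Members and lists were chosen with earlier results of these data known. Floors cover counting error only. The SE of a log2 change was worked back from its size and the quasi-likelihood F statistic, so it also holds the spread between libraries.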

Additional observations from a re-analysis of the deposited data

How the results depend on the processing

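Of 806 log2 changes recomputed for the members and for Bbd, vkg, SPARC and Acp95EF, 703 kept their direction and side of the threshold, 43 lost the call, 38 gained it and 22 changed sign. Results to which DESeq2 gave no adjusted p, named below, were taken as not called and are among the 703 by direction only. For age over both regimes, 1 member was called, and 3 with legacy dispersions (added after seeing the data), 3 with DESeq2, 4 with the replicate block, 3 without monogamous population 1 and 4 with both; all genes called were 194, and 627 with DESeq2, 475 with the block, 805 without that population and 2874 with both. In polygamous males members called were 0, and 2 without population 1 and 4 with the block too; all genes were 13, and 8 with legacy dispersions, 129 with DESeq2, 62 with the block, 371 without population 1 and 1973 with both. In monogamous males members called were 0, and 3 with DESeq2, 3 with the block, 2 without population 1 and 3 with both; all genes were 72, and 338 with DESeq2, 252 with the block and 1029 with both. DESeq2 called 137 genes for regime at 48 h, 23 at 96 h and 74 for the sums, where edgeR called 0, and no member; the block called 1 gene for the interaction and 87 without population 1. DESeq2 gave no p for TotA in any comparison, and no adjusted p for AttA (age over both regimes) and BomS1 (sums).

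Leaving out 1 library at a time, members called ran from 0 to 3 for age, 0 to 2 in polygamous and 0 to 3 in monogamous males, and all genes from 80 to 914 (age), 2 to 366 (polygamous males), 4 to 157 (monogamous males), 0 to 1 (regime at 48 h), 0 to 25 (regime at 96 h), 0 to 1 (interaction) and 0 to 9 (sums). The highest counts for age came without the 48 h library of monogamous population 1. The BomBc2 call for age was lost without any 1 of polygamous 96 h libraries 1 and 2, polygamous 48 h libraries 1, 2 and 3, or monogamous 96 h libraries 1, 2 and 3 (adjusted p = 0.0703 to 0.0918). Sign changes were these, as log2 differences. Leaving out 1 library at a time, TotA ran from -1.93 to 0.03 (age), -2.01 to 0.08 (polygamous males), -3.33 to 0.43 (monogamous males), -2.18 to 0.64 (regime at 48 h), -1.80 to 1.30 (regime at 96 h) and -0.80 to 2.96 (interaction), with the positive values for age, monogamous males and regime at 48 h without the 48 h library of monogamous population 1. The interaction was negative without that library (-0.80) and without polygamous 96 h library 3 (-0.15). Without both libraries of that population TotA was 0.64 (regime at 48 h), 1.30 (regime at 96 h) and 0.92 (sums), and BomBc2 was 0.04 (sums). CecA1 ran from -0.71 to 0.42 (monogamous males), -0.27 to 0.75 (regime at 96 h), -0.91 to 0.22 (interaction) and -0.07 to 0.93 (sums), with the sign changed without libraries of monogamous populations 2 or 3. BomS3 ran from -0.55 to 0.41 (regime at 96 h), below 0 without monogamous 96 h library 2 or polygamous 96 h library 3. The cause was not tested. The comparison of k-mers shared between transcripts was not run, since no transcript sequences were used here.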
